A study of Cucurbita pepo with 23 samples.

Results

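The MYB and basic helix-loop-helix (bHLH) transcription factors of the squash nectary are the 55 genes, of 8861 in the deposited table, whose description names a MYB transcription factor or repressor, a myb-related protein, the Myb family or a bHLH protein. The wording was read without regard to case, and 4 of the 55, the APL genes, entered only in that way. None was named PIF. The 55 entries lie at 53 melon loci, since bHLH68 (LOC103501031) and bHLH113-like (LOC103494587) each have 2 transcript variants, which share their locus and perhaps reads. By name and known roles there were 13 R2R3-MYB members, 7 single-repeat MYB members, 1 other MYB, and 34 bHLH members, of which 2 are tied to jasmonate, 3 to iron, 6 are of the BEE and CIB1 type, and 23 are others.

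RNA was sequenced from hand-dissected nectaries of female and male flowers of Cucurbita pepo (Crookneck Yellow Squash, 1 cultivar in all groups) at −24 and −15 hr (both pre-secretory), 0 hr (anthesis, secretory) and +9 hr (post-secretory). The labels give −12 and +12 hr for the second and last stage, and the hours of the methods are used here. Each of the 8 groups had 3 libraries except female −15 hr, which had 2, so that 23 were used. The −24 and 0 hr stages were at one clock time and the −15 and +9 hr stages at another, so that for successive stages development and time of day cannot be told apart. Nothing in the labels says that replicates came from separate plants, and p-values then measure only the spread between these samples, which may be technical.

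R2R3-MYB proteins bind DNA through a pair of MYB repeats and set late steps of organ development and secondary metabolism. In tobacco, MYB305 switches on nectary genes and starch metabolism as the nectary matures. bHLH proteins bind DNA as dimers, often at E-boxes, and many act beside MYB proteins or within jasmonate, light, brassinosteroid and iron responses.

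The only member for which a squash sequence was at hand is MYB305 (XM_008445303.1, LOC103487095), shown because its transcript had the largest rise of all members at −15 against −24 hr in females and the largest fall at +9 against 0 hr in both sexes. The run is the quantitative PCR amplicon of the squash contig, 161 bases on the sense strand, and capitals mark the 2 primer sites of 22 bases.
MYB305 amplicon: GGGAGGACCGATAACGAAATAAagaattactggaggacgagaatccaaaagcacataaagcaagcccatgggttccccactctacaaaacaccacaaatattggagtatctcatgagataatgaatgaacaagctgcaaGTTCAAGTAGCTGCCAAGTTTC
The run starts within the R3 repeat of the MYB domain and continues into the less conserved sequence behind it. It has no position in the melon or squash genome here, and the other 54 members are named by melon entry only.

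The deposited values are scores, read counts scaled by the authors to a common upper quartile and rounded, with library sums of 9269760 to 16139522. They were not divided by gene length, so that the levels of single genes are not set against each other. The number of genes listed at 0 was at most 17 in a +9 hr library and between 25 and 161 in the others. Over all genes, the libraries labelled female −24 hr correlated with male −24 hr libraries at r = 0.67 to 0.79 on the log2 scale, against 0.94 to 0.97 between the sexes at −15 hr. A defining nectary marker, the sugar transporter NEC1-like (LOC103485863, the SWEET9 gene of nectar export), was at 136, 220 and 165 in the female −24 hr libraries, against 151449, 44688 and 107888 in the male ones. In bulk tissue, fewer cells of a type and less RNA per cell cannot be told apart. Replicate 1 of the female +9 hr libraries stood apart, with r = 0.78 and 0.82 to its replicates, which had 0.89 between them, and 0.85 to 0.92 to the male +9 hr libraries. NEC1-like was at 22863, 368 and 951 in these 3 libraries. Counts of called members in comparisons with female +9 hr are therefore also given without replicate 1. So are the called changes of members named below that then moved by over 1.5-fold. Counts of highest stages, by role, in both sexes together and in the gene lists are given with all libraries only.

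Members varied more across the 23 libraries than genes at large, with a median coefficient of variation of 94.8% against 65.9% over all genes. A value under 10 in at least 1 library was found for 12 of the 55. By the group mean, 7, 8, 10 and 30 members were highest at −24, −15, 0 and +9 hr in female nectaries, and 17, 5, 10 and 23 in male ones. The shares of all genes highest at these stages were 33.9%, 17%, 21.8% and 27.3% in females, and 22.8%, 21.4%, 23.6% and 32.2% in males. The stage of the highest mean was the same in both sexes for 33 members, 4 of them at −24 hr, 1 (bHLH13) at −15 hr, 7 at anthesis and 21 at +9 hr. The share of all genes with the same stage, or called the same way, in both sexes was not counted, here or below. The 7 highest at 0 hr were MYB305, MYB6-like, bHLH3, bHLH66-like, bHLH68-like (LOC103503272), bHLH104-like and bHLH121, named here after their values were seen.

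**Figure D1:**
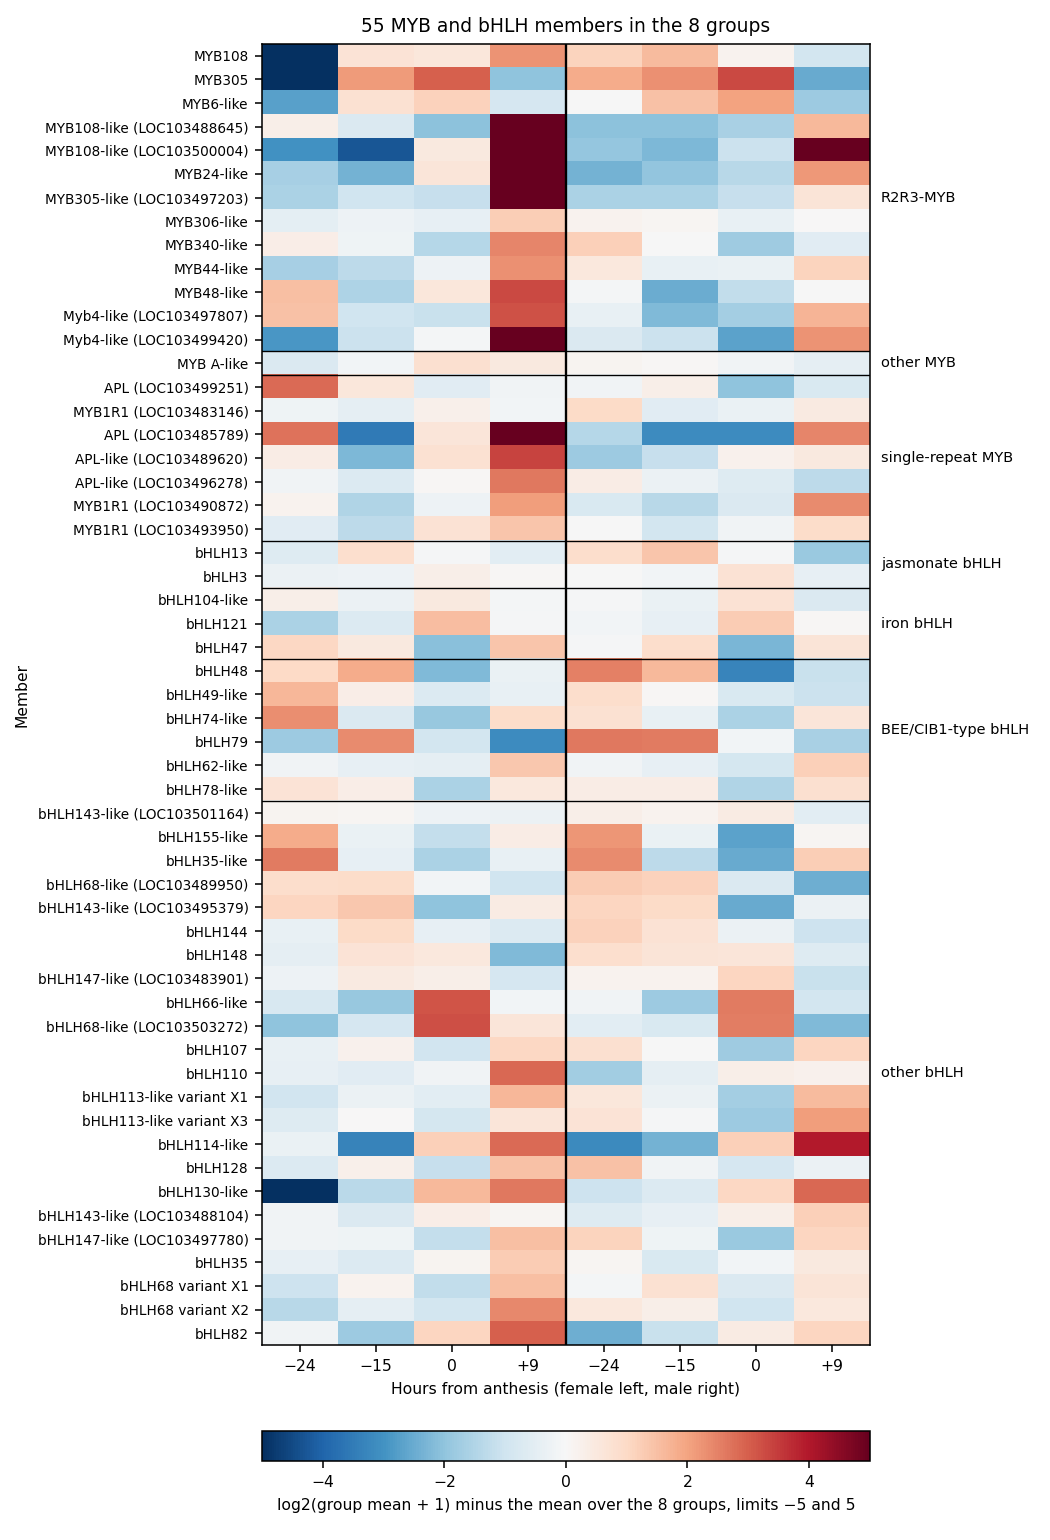
Colours give log2 of the group mean plus 1, minus the mean over the 8 groups, for each of the 55 members (top to bottom, by role) in female (left) and male (right) nectaries at the 4 stages in hours from anthesis, with the scale ending at −5 and 5. MYB305 is red at −15 and 0 hr in both sexes and blue at −24 hr in females, and 21 members have their highest mean at +9 hr in both sexes.

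MYB305 was listed in female nectaries at 37, 64 and 37 (−24 hr), 58835 and 48362 (−15 hr), 104104, 90598 and 100162 (0 hr) and 7748, 1101 and 352 (+9 hr). In male nectaries it stood at 47096, 41446 and 44062 (−24 hr), 49533, 69687 and 61695 (−15 hr), 114828, 128670 and 118650 (0 hr) and 854, 2638 and 2959 (+9 hr). The 3 female −24 hr libraries lay far below all other libraries, and the −15 and 0 hr libraries of both sexes lay above all +9 hr libraries. In females the level at −15 hr exceeded that at −24 hr by 10.20 ± 0.76, adjusted p = 8.9e-09 on the log2(value + 1) scale (limma with Benjamini-Hochberg adjustment over all 8861 genes, SE after ±, here and below). In males the same change was 0.44 ± 0.68, adjusted p = 0.81, and the 2 sexes' changes differed by 9.76 ± 1.01, adjusted p = 2.4e-06. From −15 to 0 hr the change was 0.88 in females and 1.01 in males (adjusted p = 0.32 and 0.20). The libraries of the 2 stages did not overlap in either sex, as for 77.6% of all genes in females and 69.6% in males. The male change passed the test in 2 of 31 alternatives. These were without female +9 hr replicate 1 (adjusted p = 0.034), since the spread is estimated over all libraries, and with male libraries alone (0.039). After anthesis MYB305 fell in both sexes, by a log2 change of −6.09 ± 0.68, adjusted p = 6.9e-07 in females and −6.00 ± 0.68, adjusted p = 4.2e-07 in males. The 2 sexes did not differ by the test at −15, 0 or +9 hr, with log2 differences of −0.16, −0.30 and −0.38. Without female +9 hr replicate 1, the female change after anthesis was −7.30. The sexes then differed by the test at +9 hr, with a log2 difference of −1.59 (adjusted p = 0.011). This call arose in 1 of 31 alternatives, and the 2 female libraries left (1101 and 352) still overlapped the male ones.

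Over the 23 libraries, the members whose log2 values were most like those of MYB305 were MYB6-like (Pearson r = 0.91), bHLH148 (0.69), bHLH121 (0.68), MYB108 (0.68) and bHLH147-like (LOC103483901, 0.63). The least alike were Myb4-like (LOC103497807, −0.78), APL (LOC103485789, −0.76) and bHLH74-like (−0.74). These are descriptions over libraries that share stage, time of day and scaling. MYB6-like is named a repressor and is paired in the files with Arabidopsis MYB3 and MYB6, of a group that holds down phenylpropanoid genes. It had 85, 176 and 234 (−24 hr), 2715 and 978 (−15 hr), 2930, 2989 and 1412 (0 hr) and 741, 557 and 538 (+9 hr) in female nectaries. Male nectaries had 1388, 1104 and 730 (−24 hr), 2392, 3661 and 2890 (−15 hr), 3563, 4591 and 5032 (0 hr) and 269, 339 and 321 (+9 hr). It rose at −15 against −24 hr in both sexes (log2 change 3.41 ± 0.43, adjusted p = 5.1e-06 in females and 1.50 ± 0.38, adjusted p = 0.022 in males) and fell at +9 against 0 hr (−1.93 and −3.81). Its fall after anthesis was smaller in females, with a difference between the sexes of 1.88 ± 0.54, adjusted p = 0.041, and this call was lost in 15 of 31 alternatives, among them each fit without 1 of 12 libraries, with adjusted p up to 0.11. bHLH148 and bHLH147-like (LOC103483901) are named for atypical bHLH proteins that bind other bHLH factors and hold back cell elongation in Arabidopsis. Both fell at +9 against 0 hr, bHLH148 by a log2 change of −2.79 in females and −1.38 in males, and bHLH147-like by −1.10 and −2.26.

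bHLH79, paired with Arabidopsis BEE2, a brassinosteroid-induced gene, and BIG PETAL P, which limits petal cell size, was read at each stage as follows. Female libraries had 1869, 2353 and 3430 (−24 hr), 48519 and 44782 (−15 hr), 4018, 5657 and 4905 (0 hr) and 2674, 146 and 275 (+9 hr). Male libraries had 57376, 55046 and 57531 (−24 hr), 59845, 51741 and 54278 (−15 hr), 4917, 7567 and 12513 (0 hr) and 1030, 5625 and 2274 (+9 hr). Its libraries at −15 hr in both sexes and at −24 hr in males lay between 44782 and 59845, and every other library was at 12513 or below. It rose in females at −15 against −24 hr by a log2 change of 4.24 ± 0.79, adjusted p = 0.00028, while the male change was −0.04 (adjusted p = 0.99), and the difference between the sexes was 4.27 ± 1.06, adjusted p = 0.0054. In contrast to MYB305, it was already lower at 0 than at −15 hr, with log2 changes of −3.28 in females and −2.83 in males (adjusted p = 0.0015 and 0.0020). It fell again at +9 against 0 hr (−3.34 and −1.71), in females by −4.58 without female +9 hr replicate 1.

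bHLH144, a relative of SAC51, a factor of vascular cell growth in Arabidopsis, was highest at −15 hr in females and at −24 hr in males. It had 3537, 3484 and 3766 (−24 hr), 9560 and 8715 (−15 hr), 4170, 3687 and 2605 (0 hr) and 2264, 3305 and 3212 (+9 hr) in females, and 9859, 9310 and 11997 (−24 hr), 6633, 8050 and 8513 (−15 hr), 3510, 4149 and 3683 (0 hr) and 2328, 2398 and 2110 (+9 hr) in males. The female rise at −15 against −24 hr was 1.34 ± 0.22, adjusted p = 7.4e-05, and the fall at 0 against −15 hr was −1.42 in females and −1.03 in males. MYB108, named for a factor of stamen maturation in Arabidopsis, was at 3, 0 and 7 (−24 hr), 385 and 210 (−15 hr), 242, 170 and 410 (0 hr) and 257, 1440 and 921 (+9 hr) in female nectaries. In males it stood at 660, 289 and 255 (−24 hr), 361, 659 and 632 (−15 hr), 203, 198 and 221 (0 hr) and 105, 116 and 72 (+9 hr). Like MYB305 it rose in females at −15 against −24 hr (6.49 ± 0.71, adjusted p = 1.2e-06), with a male change of 0.54 (adjusted p = 0.72), and the sexes' changes differed by 5.95 ± 0.95, adjusted p = 0.00017.

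**Figure D2:**
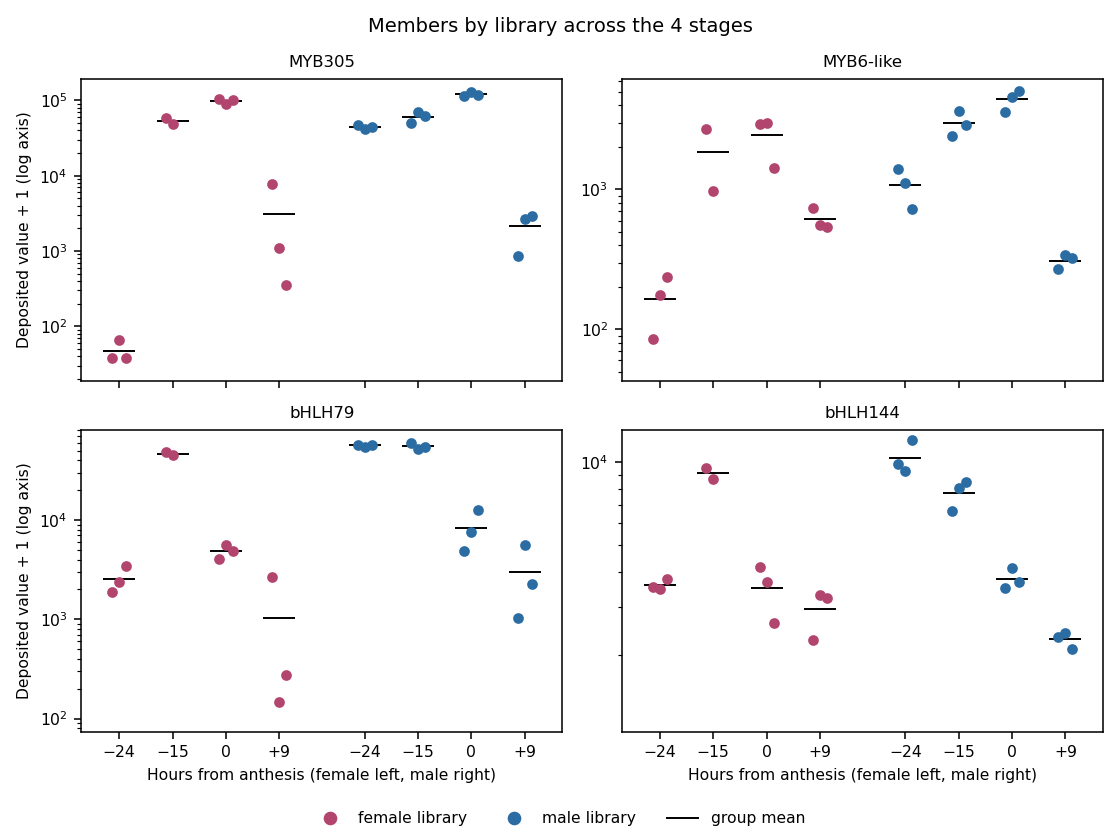
Each point is a library and each bar a group mean of the deposited value plus 1, on a log axis, for MYB305, MYB6-like, bHLH79 and bHLH144 against hours from anthesis, females left and males right in each panel. For MYB305 the 3 female −24 hr points lie between 37 and 64 before 1 is added, and the 3 male ones between 41446 and 47096.

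At −15 against −24 hr in females, 8 members rose and 13 fell, in a table where 13.9% of all genes were called higher and 24.0% lower. The median log2 change was 0.03 over the members and −0.19 over all genes, which puts the members' shares near those of all genes. Among members whose libraries did not overlap and whose higher group mean was at least 100, as for the largest changes named below, those that fell most were bHLH35-like, MYB48-like and bHLH74-like. bHLH35-like was at 124 and 438 at −15 hr, against 1076, 1835 and 3853 at −24 hr (log2 change −3.07 ± 0.75, adjusted p = 0.0025). MYB48-like was at 58 and 36 against 469, 419 and 300, and bHLH74-like, a relative of BEE2, at 67 and 97 against 608, 709 and 729 (log2 changes −3.06 and −3.06). The calls of bHLH35-like and bHLH74-like were lost without female −15 hr replicate 1 (adjusted p = 0.075 and 0.057) and that of MYB48-like without replicate 2 (0.057).

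In males the same step moved fewer genes. Of the members 2 rose, MYB6-like and bHLH82, and 6 fell, in a table where 1.57% of all genes were called higher and 3.7% lower (5.27% in all), with a median of −0.20 over the members and −0.04 over all genes. bHLH35-like again fell, to 241, 89 and 127 at −15 hr, against 1509, 1400 and 2813 at −24 hr (−3.69 ± 0.67, adjusted p = 0.0019). bHLH155-like, paired with a relative of the vascular factor LONESOME HIGHWAY, fell to 450, 113 and 357, against 1634, 2540 and 1303 (−2.73 ± 0.48, adjusted p = 0.0015). bHLH66-like, of a family of root hair factors in Arabidopsis, fell to 30, 38 and 33, against 109, 116 and 103 (−1.68 ± 0.36, adjusted p = 0.0074). bHLH82, of the same family, rose to 136, 294 and 234, against 126, 51 and 82 (1.37 ± 0.37, adjusted p = 0.032), while in females it fell (−1.59). Without 1 of the male libraries of these 2 stages, 3 to 5 members were called in place of 8 for 5 of the 6 libraries, and the rises of MYB6-like and bHLH82 were each lost in 4 of those fits.

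bHLH35-like and bHLH155-like were highest at −24 hr in both sexes. In females bHLH155-like had 996, 1092 and 2156 (−24 hr), 282 and 340 (−15 hr), 99, 182 and 229 (0 hr) and 672, 256 and 600 (+9 hr). bHLH35-like stood at 63, 44 and 87 in male nectaries at 0 hr and rose to 822, 642 and 1210 at +9 hr (3.77 ± 0.67, adjusted p = 7.3e-05). The corresponding female change was 1.47 with an adjusted p of 0.062.

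Between −15 and 0 hr, 14 members rose and 11 fell in females, where 20.5% of all genes were called higher and 31.1% lower. In males 7 rose and 16 fell, where 17.5% of all genes were called higher and 29.7% lower. The median change in females was −0.15 over the members and −0.30 over all genes, and in males −0.02 over the members and −0.31 over all genes. With the libraries rescaled by trimmed means of M values (TMM), the counts were 17 higher and 6 lower in females and 11 and 14 in males. The 6 members that rose in both sexes were bHLH66-like, bHLH68-like (LOC103503272), bHLH82, bHLH114-like, bHLH121 and bHLH130-like, and 9 members fell in both. At the same step the 16 mesophyll markers (photosystem, chlorophyll-binding and Rubisco small-chain genes) summed to 8481 to 9216 in female 0 hr libraries, against 285 to 2662 at −15 hr, and to 1800 to 6995 against 229 to 438 in males, with 11 called higher in females, 10 in males and 0 lower. The 4 phloem markers summed to 963 to 1725 against 360 to 380 in females and to 750 to 916 against 387 to 434 in males, with 3 and 1 called higher. The part of these cells in the members' changes was not tested. Of the 13 R2R3-MYB members 3 rose and 0 fell in females at this step, and 0 rose and 1 fell in males.

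bHLH66-like rose most, to 1418, 647 and 1158 at 0 hr, against 29 and 35 at −15 hr in females (4.96 ± 0.40, adjusted p = 1.4e-08). Male values were 983, 776 and 504 against 30, 38 and 33 (4.40 ± 0.36, adjusted p = 1.5e-08). It fell again at +9 hr, to 143, 108 and 86 in females and 39, 59 and 94 in males (−3.20 and −3.58 against 0 hr), so that both sexes had a single high stage. bHLH68-like (LOC103503272) showed the same form. It was at 10185, 4919 and 3176 at 0 hr in females, against 364 and 359 at −15 hr (3.90 ± 0.62, adjusted p = 2.9e-05), and at 6211, 2737 and 2496 against 220, 555 and 392 in males (3.26 ± 0.55, adjusted p = 5.7e-05). At +9 hr it had fallen to 1286, 1263 and 404 in females and to 59, 205 and 162 in males (−2.64 and −4.79). APL-like (LOC103489620) rose in females too, to 124, 133 and 215 at 0 hr, against 26 and 12 at −15 hr (3.03 ± 0.86, adjusted p = 0.0047), a call lost without female −15 hr replicate 2 (adjusted p = 0.063). At +9 hr bHLH68-like (LOC103503272) was higher in females than in males, with a log2 difference of 2.78 ± 0.55, adjusted p = 0.0023. Without female +9 hr replicate 1 the difference was 2.50 (adjusted p = 0.0047). The number of members called between the sexes at +9 hr depended strongly on the libraries fitted, as given below.

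Members that fell most at anthesis were bHLH48, bHLH143-like (LOC103495379), bHLH79 and bHLH47. bHLH48 is paired with CIB1, which binds the blue-light receptor cryptochrome in Arabidopsis. It was at 87, 107 and 90 at 0 hr, against 1164 and 2020 at −15 hr in females (−4.01 ± 0.45, adjusted p = 6.7e-07), and at 29, 47 and 56 against 1395, 982 and 1674 in males (−4.92 ± 0.41, adjusted p = 1.5e-08). bHLH143-like (LOC103495379), of the SAC51 family, was at 50, 92 and 55 against 550 and 806 in females (−3.37 ± 0.43, adjusted p = 2.7e-06), and at 42, 45 and 49 against 591, 399 and 553 in males (−3.46 ± 0.39, adjusted p = 5.5e-07). Both rose again at +9 hr in each sex, bHLH48 by 1.71 in females and 2.07 in males, and bHLH143-like by 2.26 and 2.19, without reaching the −15 hr mean. Of the 6 BEE and CIB1 type members, 4 fell in females and 3 in males at this step, and 0 rose in either. Of all genes 31.1% were called lower and 20.5% higher in females, and 29.7% and 17.5% in males. The 6 include bHLH48 and bHLH79, picked above for their falls.

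**Figure D3:**
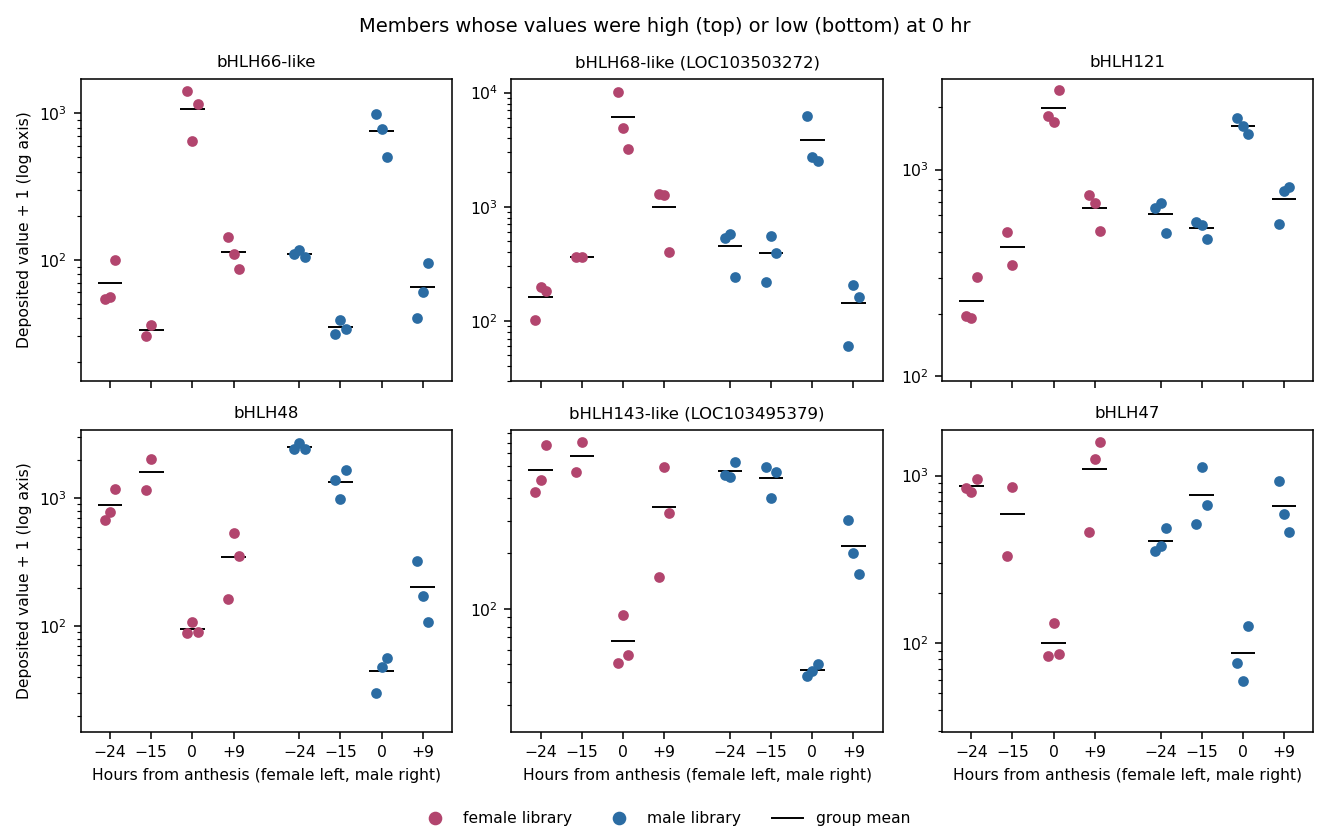
Each point is a library and each bar a group mean of the deposited value plus 1, on a log axis, against hours from anthesis with females left and males right, for 3 members that rose at 0 hr (top) and 3 that fell (bottom). For bHLH66-like the 0 hr points lie between 504 and 1418 and every other library is below 150. For bHLH48 all 6 libraries at 0 hr lie between 29 and 107.

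The titles of the female −15 hr libraries skip number 2, so female 0 hr replicate 1 was also tried as the missing one. Over all genes, it correlated at 0.63 and 0.65 with the 2 female −15 hr libraries and at 0.96 and 0.97 with the other female 0 hr libraries. Its label was kept. Counted with −15 hr, it left 3 of 25 members called at female 0 against −15 hr. With it left out, 22 were called.

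The 2 jasmonate bHLH members are known in Arabidopsis as repressors of responses that MYC2 drives. bHLH13 was at 370, 343 and 292 (−24 hr), 1159 and 756 (−15 hr), 488, 555 and 494 (0 hr) and 343, 440 and 309 (+9 hr) in females. Male libraries had 950, 945 and 1055 (−24 hr), 1474, 1455 and 1242 (−15 hr), 428, 469 and 638 (0 hr) and 176, 89 and 167 (+9 hr). It rose in females at −15 against −24 hr (1.49 ± 0.27, adjusted p = 0.00021) and fell in males at both later steps (−1.46 and −1.86). The sexes' changes at +9 against 0 hr differed by 1.36 ± 0.34, adjusted p = 0.023, with +9 hr libraries of 343, 440 and 309 in females, against 176, 89 and 167 in males. bHLH3 was flatter, between 846 and 1986 in all 23 libraries, and its 1 called successive step was the fall in males at +9 against 0 hr, to 893, 913 and 897, against 1951, 1953 and 1986 (−1.12 ± 0.22, adjusted p = 0.00022).

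Around them, 28 entries were listed by names tied to jasmonate synthesis or signalling. They include TOPLESS proteins and a linoleate 9S-lipoxygenase, which are not specific to jasmonate. At −15 against −24 hr in females 9 of the 28 rose and 6 fell, with a median log2 change of 0.52 beside −0.19 over all genes, and in males 2 rose and 1 fell (median −0.01). Of all genes 13.9% were called higher and 24.0% lower at this step in females, and 1.57% and 3.7% in males. TIFY 5A-like (LOC103493010), a JAZ-type repressor, rose in females by 10.03, changed by −0.64 in males without being called, and then fell at 0 against −15 hr (log2 change −6.93 in females and −5.48 in males). At 0 against −15 hr, where the shares over all genes are those given above (20.5% and 31.1% in females, 17.5% and 29.7% in males), 4 rose and 10 fell in females, and 5 rose and 8 fell in males. At +9 against 0 hr, with 32.0% of all genes called higher and 17.3% lower in females and 31.4% and 17.6% in males, 10 rose and 4 fell in females, and 11 and 5 did in males. All 3 chloroplastic 13S-lipoxygenase 2-1 entries, enzymes at the start of jasmonate synthesis, rose then, by 5.32 to 6.37 in females and 5.21 to 6.79 in males. COI1, the jasmonate receptor, had −0.28 and 0.71, neither of them called.

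Of the 3 iron members, bHLH47, named for POPEYE, which restrains iron genes in Arabidopsis, and bHLH121, an activator there, moved in opposite directions at anthesis in both sexes. bHLH47 was at 83, 131 and 85 at 0 hr, against 328 and 855 at −15 hr in females (−2.43 ± 0.49, adjusted p = 0.00029), and at 75, 58 and 126 against 510, 1130 and 666 in males (−3.13 ± 0.43, adjusted p = 6.5e-06). It rose at +9 hr to 457, 1249 and 1583 in females and 924, 589 and 459 in males (3.30 and 2.93 against 0 hr). bHLH121 was at 1818, 1690 and 2414 at 0 hr, against 497 and 344 at −15 hr in females (2.23 ± 0.26, adjusted p = 1.0e-06), and at 1775, 1627 and 1482 against 555, 539 and 462 in males (1.65 ± 0.23, adjusted p = 8.6e-06). It fell at +9 hr to 756, 691 and 503 in females and 544, 784 and 826 in males (−1.60 and −1.20). bHLH104-like, also an activator, stayed between 366 and 1240 in all libraries and rose in males at 0 against −15 hr (1.04 ± 0.23, adjusted p = 0.00085), with 0.78 in females. Among 5 iron uptake and storage genes listed beside them, the metal transporter Nramp3-like fell at 0 against −15 hr (−4.62 in females and −4.98 in males), ferric reductase FRO8 rose (4.10 and 4.42), and the others were not called at that step.

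No PIF factor was in the table, but 12 genes that act with PIF proteins in light and gibberellin responses were. At 0 against −15 hr 8 rose and 2 fell in each sex, with medians of 1.87 in females and 1.81 in males beside −0.30 and −0.31 over all genes, of which 20.5% were called higher and 31.1% lower in females and 17.5% and 29.7% in males. The mesophyll markers, 11 of 16 called higher in females and 10 in males, had medians of 3.47 and 3.28, and their part in the changes of this list was not tested. Phytochrome C rose by 5.21 and 4.79, whereas phytochrome A fell (−3.17 and −1.99). At +9 against 0 hr 0 rose and 7 fell in females, and 1 and 5 did in males. Of all genes 32.0% were called higher and 17.3% lower there in females, and 31.4% and 17.6% in males. At 0 against −24 hr, the same clock time, 8 rose and 1 fell in females, and 7 and 2 did in males. The shares over all genes were 25.6% and 38.0% in females, and 17.5% and 31.1% in males. Of the 16 mesophyll markers 12 rose and 0 fell in females, and 7 and 1 did in males, and their part was not tested.

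The phenylpropanoid and flavonoid list held 22 genes picked by name, from pathways that R2R3-MYB repressors and activators often target. It includes 4-coumarate--CoA ligase-like entries and TRANSPARENT TESTA GLABRA 1, which are not all enzymes of these pathways. In females 8 of the 22 rose and 4 fell at −15 against −24 hr, 4 and 6 at 0 against −15 hr, and 6 and 8 at +9 against 0 hr. In males the counts were 4 and 1, 4 and 5, and 7 and 10. Over all genes the shares called higher and lower in the 3 steps were 13.9% and 24.0%, 20.5% and 31.1%, and 32.0% and 17.3% in females, and 1.57% and 3.7%, 17.5% and 29.7%, and 31.4% and 17.6% in males. The medians at the last step were −0.58 in females and −0.61 in males, beside 0.34 and 0.29 over all genes. Of the 6 phenylalanine ammonia-lyase entries, which share sequence, 4 rose in males at −15 against −24 hr, and at +9 against 0 hr 5 fell in males and 4 in females. At that last step the entry LOC103501962 rose in both sexes (3.64 in females and 3.08 in males). MYB6-like, described above, fell at the same step.

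The step after anthesis moved the most members upwards. At +9 against 0 hr in females 31 rose and 8 fell, where 32.0% of all genes were called higher and 17.3% lower. In males 24 rose and 12 fell, where 31.4% of all genes were called higher and 17.6% lower. The median log2 change was 1.70 over the members and 0.34 over all genes in females, and 1.16 over the members and 0.29 over all genes in males. With every library scaled to one sum, 35 rose and 6 fell in females, and 33 and 7 did in males. With TMM scaling 28 rose and 9 fell in females, and 19 and 13 did in males. In all, 20 members rose in both sexes and 8 fell in both, and no member was called in opposite directions. Without female +9 hr replicate 1, the female counts were 31 and 9. At the same time the 16 mesophyll markers summed to 3686 to 19048 in female +9 hr libraries, against 8481 to 9216 at 0 hr, and the 4 phloem markers to 1389 to 6191 against 963 to 1725, with none of them at 0. In males the mesophyll sums were 9509 to 10591 at +9 hr, against 1800 to 6995, and the phloem sums 787 to 1441 against 750 to 916. Of the mesophyll markers 3 were called higher and 4 lower in females (median −0.12), and 5 and 0 in males (0.43). Of the phloem markers 1 was called higher and 0 lower in each sex (medians 0.90 in females and 0.35 in males). Their part in the members' changes was not tested.

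The largest rises in females were in R2R3-MYB members. Of these, 10 of 13 rose in females and 6 in males, where 32.0% and 31.4% of all genes were called higher. Of the 5 with the largest female changes, MYB305-like (LOC103497203), MYB24-like and both MYB108-like entries are paired in the files with Arabidopsis MYB62, MYB78 and MYB116, of the subgroup that also holds MYB108, whatever their own names. MYB305-like (LOC103497203) is thus not paired with a nectary MYB. It was listed at 60, 908 and 492 at +9 hr in females, against 0, 0 and 1 at 0 hr (adjusted p = 1.1e-06), and at 7, 2 and 2 against 0, 1 and 0 in males (adjusted p = 0.11). MYB24-like was at 527, 917 and 489 against 3, 2 and 16 in females (6.72 ± 0.81, adjusted p = 1.6e-06), and at 33, 10 and 25 against 0, 3 and 0 in males (3.75 ± 0.81, adjusted p = 0.00050). MYB108-like (LOC103488645) was at 51, 678 and 443 at +9 hr in females and was listed at 0 in all 3 female libraries at 0 hr (adjusted p = 5.8e-07). In males it was at 14, 12 and 9 against 0, 1 and 0 (adjusted p = 0.0027). The +9 hr libraries also listed fewer genes at 0 than those of any other stage, and its part in these rises was not tested. For these low starting values the size of a log2 change depends on the 1 added to each value.

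MYB108-like (LOC103500004) rose in both sexes, to 376, 3645 and 3333 at +9 hr, against 39, 10 and 29 at 0 hr in females (6.14 ± 1.02, adjusted p = 4.2e-05), and to 641, 823 and 479 against 19, 0 and 5 in males (adjusted p = 8.8e-06). Myb4-like (LOC103497807) bears the name of a phenylpropanoid repressor and is paired with Arabidopsis MYB9 and MYB103. Its female libraries had 1268, 1951 and 3491 (−24 hr), 428 and 393 (−15 hr), 403, 214 and 514 (0 hr) and 2036, 9070 and 11087 (+9 hr). Male libraries had 620, 813 and 466 (−24 hr), 173, 116 and 231 (−15 hr), 334, 264 and 161 (0 hr) and 5530, 1661 and 820 (+9 hr). It rose by 4.05 ± 0.62, adjusted p = 1.7e-05 in females and 3.01 ± 0.62, adjusted p = 0.00031 in males at +9 against 0 hr, and had fallen in females at −15 against −24 hr (−2.32). The female replicate 1 was the lowest of the 3 at +9 hr for this gene, for both MYB108-like entries and for MYB305-like (LOC103497203). Without it the female changes of Myb4-like (LOC103497807) and MYB108-like (LOC103500004) were 4.82 and 7.20, and those of MYB305-like (LOC103497203) and MYB108-like (LOC103488645) were 9.05 and 9.10, against 7.90 and 7.97 with all libraries, sizes that depend on the 1 added. MYB108 was then called too (2.16, adjusted p = 0.0053, against 1.44 ± 0.64, adjusted p = 0.055 with all libraries).

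**Figure D4:**
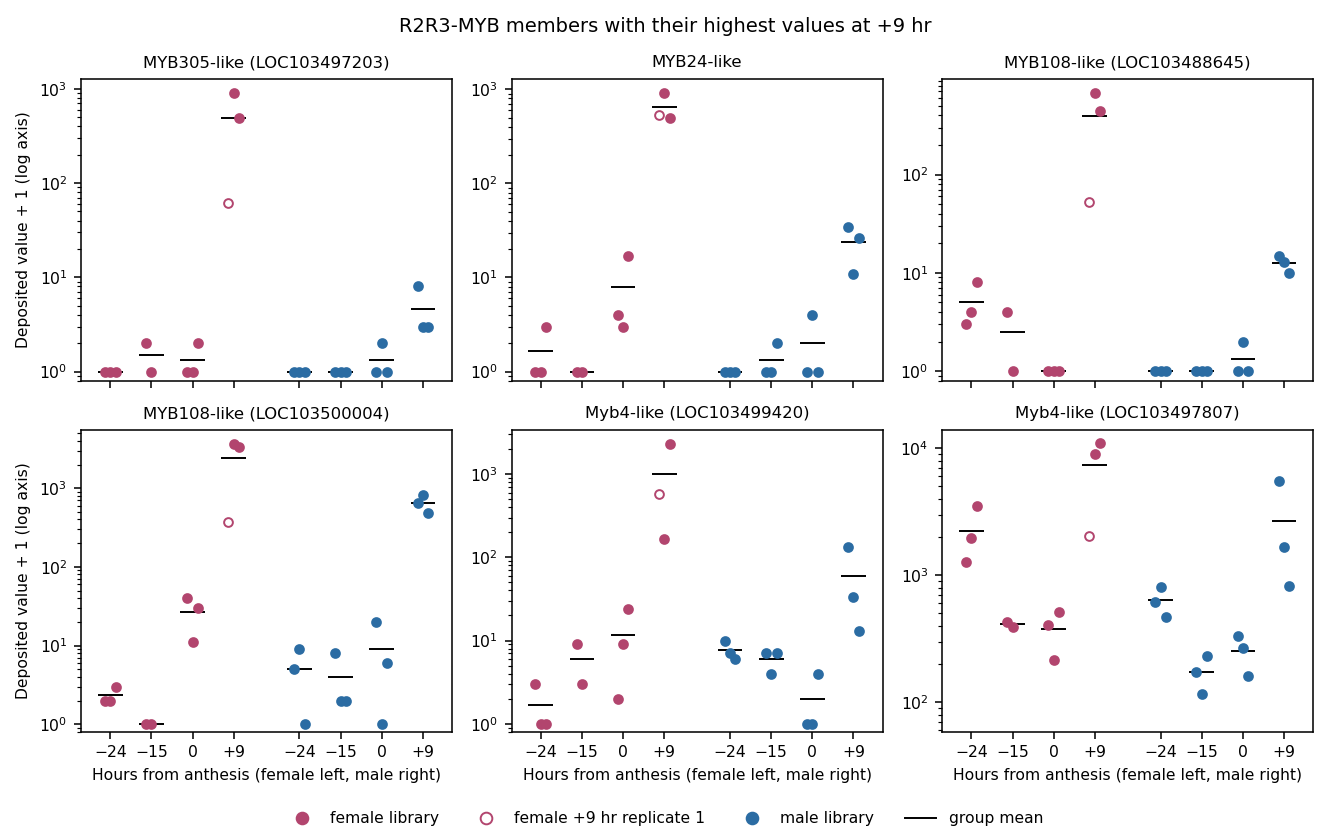
Each point is a library and each bar a group mean of the deposited value plus 1, on a log axis, for 6 R2R3-MYB members against hours from anthesis, females left and males right, with female +9 hr replicate 1 as an open circle. All 6 have their highest group mean at +9 hr in both sexes, and for MYB305-like (LOC103497203) the open circle is at 60 while the other 2 female libraries are at 908 and 492.

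Among the other members that rose at +9 hr, bHLH113-like variant X3 had the larger change in males, at 1437, 1320 and 1238 at +9 hr, against 120, 71 and 70 at 0 hr (3.96 ± 0.30, adjusted p = 4.7e-09). In females it was at 590, 388 and 462 against 145, 156 and 201 (1.51 ± 0.30, adjusted p = 0.00024), and the sexes' changes differed by −2.46 ± 0.42, adjusted p = 0.0036. Of the single-repeat MYB members 4 of 7 rose in females and 3 in males, where 32.0% and 31.4% of all genes were called higher. APL (LOC103485789) rose to 138, 951 and 498, against 1, 17 and 32 in females (5.25 ± 0.84, adjusted p = 3.0e-05, and 6.02 without replicate 1), and to 68, 74 and 44, against 1, 0 and 0 in males (5.61 ± 0.84, adjusted p = 1.3e-05). APL sets phloem identity in Arabidopsis, but of the 4 entries with that name only the 2 called APL-like are paired with the Arabidopsis gene. bHLH82 rose to 2496, 6091 and 2819, against 655, 1199 and 1200 in females (1.83 ± 0.37, adjusted p = 0.00032), with 725, 1190 and 1144 against 641, 617 and 631 in males (0.66, adjusted p = 0.13).

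bHLH143-like (LOC103501164), between 910 and 2745 in all libraries, was called in none of the 10 comparisons of stages. Of the potato MYB1R1 type, linked there to drought responses, LOC103483146 fell in males at −15 against −24 hr, to 1665, 1008 and 1330, against 4442, 4501 and 2609 (−1.51 ± 0.41, adjusted p = 0.030), and was called at no other successive step. LOC103493950 rose in females at 0 against −15 hr, to 1475, 2475 and 1896, against 439 and 504 (2.02 ± 0.39, adjusted p = 0.00024), and in males at +9 against 0 hr (1.08 ± 0.35, adjusted p = 0.012). bHLH143-like (LOC103488104) rose at 0 against −15 hr in females (1.07 ± 0.36, adjusted p = 0.015) and was lower in females than in males at +9 hr, at 1203, 1113 and 1391 against 2584, 3319 and 2011 (−1.07 ± 0.33, adjusted p = 0.026), a call lost in 6 of 31 alternatives. These were equal sums (adjusted p = 0.060), only the +9 hr libraries (0.093), female 0 hr replicate 1 counted with −15 hr (0.086), and leaving out female +9 hr replicate 2 (0.087), male +9 hr replicate 1 (0.051) or male +9 hr replicate 2 (0.12). Of the 55 members, 53 were called in at least 1 of the 6 successive steps (96.4%, against 83.4% of all genes), and MYB A-like and bHLH143-like (LOC103501164) in none.

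Stages sampled at the same clock time were also compared. At 0 against −24 hr 15 members rose and 14 fell in females, where 25.6% of all genes were called higher and 38.0% lower, and 9 rose and 20 fell in males, where 17.5% of all genes were called higher and 31.1% lower. The medians were 0.27 over the members and −0.40 over all genes in females, and −0.81 over the members and −0.35 over all genes in males. These splits moved with scaling, to 20 and 12 (TMM) or 9 and 16 (one sum) in females and to 14 and 18 (TMM) in males. In both sexes 6 members rose, MYB6-like, bHLH66-like, bHLH68-like (LOC103503272), bHLH82, bHLH121 and bHLH130-like, and 11 fell. At +9 against −15 hr 24 rose and 10 fell in females, where 25.5% of all genes were called higher and 21.9% lower, and 22 rose and 13 fell in males, where 24.2% of all genes were called higher and 19.4% lower. With one sum per library these were 35 and 6 in females and 25 and 8 in males, and 29 and 10 in females without female +9 hr replicate 1. Of the 16 mesophyll markers 13 were called higher in females (median 3.86) and 14 in males (5.09) and 0 lower, as were 3 and 2 of the 4 phloem markers, and their part in these counts was not tested. In both sexes 17 members rose and 10 fell, MYB305 (−5.21 in females and −4.99 in males) and bHLH79 (−6.61 and −4.55) with the largest falls in each. Without that replicate the female falls were −6.42 and −7.85.

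Females and males were compared at each stage. At −24 hr 9 members were higher and 19 lower in females, where 24.6% of all genes were called higher and 16.6% lower, with a median of −0.58 over the members and 0.13 over all genes. With every library scaled to one sum the counts were 13 and 16. The largest negative log2 differences were those of MYB305 (−9.92 ± 0.68, adjusted p = 1.7e-09), MYB108 (−6.85 ± 0.64, adjusted p = 8.5e-08) and bHLH79 (−4.52 ± 0.71, adjusted p = 3.3e-05), with the values given above. These members and those named next were picked for libraries that did not overlap between the sexes, as those of 67.0% of all genes did not. Highest relative to males were APL (LOC103499251), at 279, 305 and 229 against 45, 31 and 20 in males (3.11 ± 0.57, adjusted p = 0.00015), APL-like (LOC103489620), at 134, 148 and 86 against 52, 17 and 8 (2.56 ± 0.77, adjusted p = 0.0086, and 0.057 without male −24 hr replicate 3), and bHLH82, at 502, 470 and 296 against 126, 51 and 82 (2.33 ± 0.37, adjusted p = 4.1e-05). The 4 phloem markers summed to 836 to 954 in female and 405 to 807 in male libraries at that stage. Of these 4, 1 was called higher in females and 0 lower, with a median log2 difference of −0.13 beside 0.13 over all genes. NEC1-like was low in females as given above. The part of these markers and of NEC1-like in the members' differences was not tested.

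The change from −24 to −15 hr was then compared between the sexes. The female log2 change was above the male one for 12 members and below it for 5, where the shares of all genes were 12.3% and 15.7%. With one sum per library the counts were 7 and 7, and 10 members were called in place of 17 without female −24 hr replicate 1. Beside MYB305, MYB108 and bHLH79, the members with the largest differences were APL (LOC103485789), bHLH114-like and APL-like (LOC103489620). APL (LOC103485789) was listed at 0 in both female −15 hr libraries, against 99, 72 and 54 at −24 hr, and male libraries were at 0, 1 and 0 against 2, 6 and 2 (adjusted p of the difference = 0.011). APL-like (LOC103489620) was at 26 and 12 against 134, 148 and 86 in females, and at 14, 71 and 41 against 52, 17 and 8 in males (−3.49 ± 1.15, adjusted p = 0.027), and the call was lost in 8 of 31 alternatives, 7 of them without 1 library of these stages (adjusted p up to 0.13). bHLH114-like was at 0 and 1 against 10, 17 and 7 in females, and at 3, 3 and 0 against 0, 0 and 2 in males, all near the low end of the scale, and its call was lost with a pseudocount of 10 (adjusted p = 0.27) and without female −15 hr replicate 1 (0.079).

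At −15 and at 0 hr the test called 0 members between the sexes. The shares of all genes called were 0.0903% higher and 0.0451% lower in females at −15 hr, and 0.181% and 0.0677% (0.248% in all) at 0 hr, and an unadjusted p under 0.05 was reached by 1 and 15 members. At 0 hr 3 were called when female replicate 1 was left out. The difference between the sexes in the change from −15 to 0 hr called 0 members (0.0% of all genes higher and 0.0113% lower), with 6 at an unadjusted p under 0.05.

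At +9 hr 16 members were higher and 3 lower in females, where 8.36% of all genes were called higher and 6.36% lower. Without female replicate 1 the counts were 26 and 7, without replicate 2 or 3 there were 11 or 12 calls in all in place of 19, and in a fit to the +9 hr libraries alone 3 members were called. With all libraries fitted, the largest positive differences were those of MYB305-like (LOC103497203, 60, 908 and 492 in females against 7, 2 and 2 in males, 6.18 ± 0.92, adjusted p = 0.00033), MYB24-like (527, 917 and 489 against 33, 10 and 25, 4.86 ± 0.81, adjusted p = 0.00072) and MYB108-like (LOC103488645, 51, 678 and 443 against 14, 12 and 9, 4.32 ± 0.87, adjusted p = 0.0026). These 3 were picked among called members whose libraries did not overlap between the sexes, replicate 1 included. The lack of overlap is therefore no separate result. The call of MYB108-like (LOC103488645) was lost in the fit to the +9 hr libraries alone (adjusted p = 0.074). Without replicate 1 the differences of MYB305-like (LOC103497203) and MYB108-like (LOC103488645) were 7.33 and 5.46. bHLH113-like variant X3 was lower in females (−1.49 ± 0.30, adjusted p = 0.0024), as was bHLH79 (−2.31 ± 0.71, adjusted p = 0.027, with overlapping libraries, and −3.55 without replicate 1). The change from 0 to +9 hr differed between the sexes for 4 members upwards in females and 1 downwards, against 2.57% and 4.6% of all genes, and for 13 and 4 without replicate 1. Without 1 of 8 other 0 or +9 hr libraries, 2 or 3 were called. Beside MYB305-like (LOC103497203) and MYB6-like, MYB108-like (LOC103488645) was among those higher, a call lost in 9 of 30 alternatives (adjusted p up to 0.079).

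**Figure D5:**
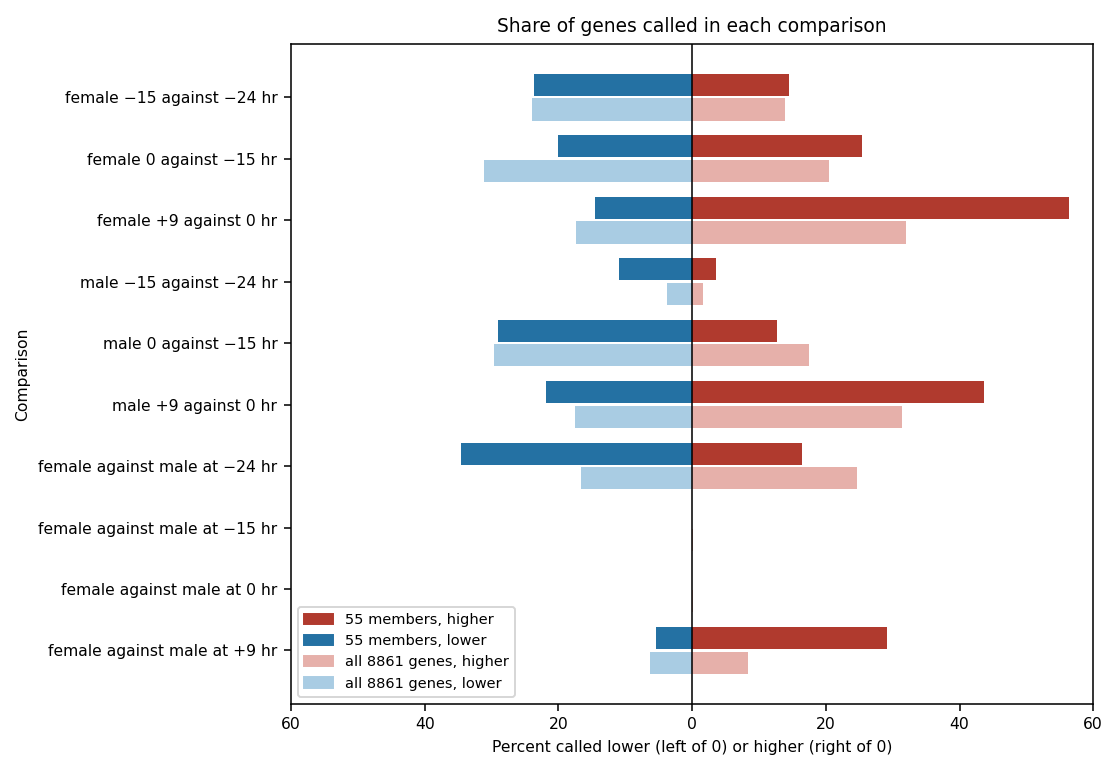
Bars give the percent of genes called lower (left of 0) or higher (right of 0) in 10 comparisons, dark for the 55 members and pale for all 8861 genes, where called means an adjusted p under 0.05 and at least a 2-fold change. The longest member bar is 56.4% higher at female +9 against 0 hr, where 32% of all genes were called higher, and no member was called between the sexes at −15 or 0 hr.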

How the data were processed

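RNA from the 23 nectary libraries was sequenced by the authors, assembled with Trinity and matched to melon genes by blastn (E-value cutoff 1e-05), so that a gene here is a melon entry. The deposited values are scores: read counts that the authors scaled to the upper quartile and rounded to whole numbers, with no length correction. How reads were counted on the contigs was not given in the sources used. The other deposited sheets and columns hold the authors' means, SDs, ratios, p-values and gene lists and were not used.

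Libraries were grouped by the sex and stage of their labels. All 8861 genes and 23 libraries entered 1 limma fit (version 3.58.1, R 4.3.3) of log2(value + 1), with a mean-variance trend and 19.6 residual degrees of freedom after moderation. All tests were two-sided, with Benjamini-Hochberg adjustment over all genes per comparison, and a gene was called at an adjusted p under 0.05 and at least a 2-fold change. The fit was tested on simulated data. No raw counts were at hand, so that the limma fit takes the place of a count test, and no counting interval can be given.

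The members and the gene lists were chosen with earlier results of these data known. Named were MYB305, the 10 members with the highest means, up to 3 called members each way per successive step and sex comparison (libraries not overlapping, higher group mean at least 100), up to 3 each way per sex difference in a step, the 5 members most and 3 least like MYB305, and the jasmonate and iron members. Members, markers and partner genes named beyond these were chosen after their values were seen. Alternatives were TMM scaling, scaling to equal sums, a pseudocount of 10, a mean of at least 100, no trend, no fold threshold, a replicate block, only the libraries compared, regrouping female 0 hr replicate 1, and leaving out each library.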

Additional observations from a re-analysis of the deposited data

Results flagged for a closer look

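Of the members whose change differed between the sexes by the limma test, 10 are given here. From −24 to −15 hr the female log2 change was above the male one by 9.76 for MYB305, 5.95 for MYB108 and 4.27 for bHLH79. It was below the male one for APL (LOC103485789, difference −4.55), bHLH114-like (−3.85) and APL-like (LOC103489620, −3.49). APL (LOC103485789) and bHLH114-like have libraries listed at 0, and the size of their differences depends on the value of 1 added before the log. From 0 to +9 hr the female change was above the male one by 6.18 for MYB305-like (LOC103497203), 4.66 for MYB108-like (LOC103488645) and 1.88 for MYB6-like, and below it for bHLH113-like variant X3 (−2.46). Without female +9 hr replicate 1 the first 2 of these were 7.33 and 5.79. MYB108-like (LOC103488645) was listed at 0 in all 3 female 0 hr libraries. Groups of 2 or 3 libraries were not tested for single samples far from the others.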

How the results depend on the processing

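No named change reversed under any alternative, no called member changed sign under TMM or equal-sum scaling, and the counts of called members were within 1.5 times those reported except as follows. With female 0 hr replicate 1 counted as −15 hr, 3 members were called at female 0 against −15 hr, 2 at male −15 against −24 hr, 1 between the sexes at 0 hr, 12 between them at +9 hr, and 2 for the sex difference in the step from 0 to +9 hr. With only the libraries compared, 3 were called between the sexes at +9 hr and 3 for that sex difference, which had 8 with a pseudocount of 10 and 3 among genes with a mean of at least 100. When each library was left out in turn, the counts ranged from 3 to 11 at male −15 against −24 hr, from 0 to 3 between the sexes at 0 hr, from 11 to 33 between them at +9 hr, from 10 to 20 for the sex difference in the step from −24 to −15 hr, and from 2 to 17 for that from 0 to +9 hr. Without 1 of the 2 female −15 hr libraries the lone one is assumed to vary like the other groups. The causes were not tested. Splits between higher and lower that moved by over 10 percentage points with scaling stand beside their counts. Upper-quartile, TMM and equal-sum scaling put the median change of all genes at 0.34, 0.08 and 0.98 for female +9 against 0 hr and at 0.29, 0.06 and 0.84 for male +9 against 0 hr. Values near 0 limit the fold changes of 12 members, and the depth behind the scaled values is unknown.

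The replicate numbers did not pair the libraries, since the deviations of same-numbered libraries from their group means correlated at a median of −0.003 over 77 pairs (range −0.503 to 0.27, 10 of them over 0.1). With the replicate block, the counts of called members were 20, 25 and 40 in the 3 female steps and 7, 23 and 34 in the male ones, 26, 0, 0 and 19 between the sexes at the 4 stages, and 18, 0 and 4 for the sex differences in the 3 steps.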
